A study of Homo sapiens with 4 samples.

Results

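Translation initiation factors were followed in HaCaT cells, an immortalised human keratinocyte line, by polyA RNA-seq. They were taken as every listed gene whose symbol starts with EIF1 to EIF6, without the EIF2AK kinases and without pseudogenes. That rule gave 55 of the 29209 listed genes, 50 of them protein coding and 5 non-coding neighbours that carry a factor's name. The samples were 2 libraries of a line transduced with lentivirus to overexpress TCN1 (TCN1_OE), which encodes the vitamin B12 carrier haptocorrin, and 2 libraries of a negative control line (NC). Both lines are established HaCaT lines grown in the same medium. Not given in the sources used here is what the control virus carried, whether a line is 1 clone and whether libraries of a line came from separate cultures. The p-values therefore measure only how these libraries scatter, which may be technical scatter. The study asked which genes respond to extra TCN1.

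Initiation factors bring the small ribosomal subunit, the initiator tRNA and the mRNA together. eIF1 and eIF1A guard start codon choice, eIF2 carries the initiator tRNA with GTP and is recharged by eIF2B, and eIF3 is the scaffold on the small subunit. The cap is bound by eIF4E on the eIF4G scaffold with the helicase eIF4A, and the eIF4E-binding proteins block that step when mTORC1 is off. Phosphorylation of eIF2 holds back eIF2B in the integrated stress response. Keratinocytes depend on this machinery as all dividing cells do.

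TCN1 itself had 1700 and 1253 counts in the TCN1_OE libraries, against 50 and 17 counts in the NC libraries. Its log2 fold change was 5.48 ± 0.20 (SE; edgeR, adjusted p 2.4e-06). Library totals were 16586500 and 14756073 counts in TCN1_OE, against 19973550 and 11593377 counts in NC. At a length of 1500 bp, 3 counts equal 0.1001 to 0.173 FPKM (fragments per kilobase of gene, scaled to the library total), which limits what the depth can show. Such floors cover counting error only. The 8 keratinocyte and general epithelial markers (KRT5, KRT14, TP63, ITGA6, ITGB4, CDH1, EPCAM and DSG3) were all at 1 FPKM or more. Their summed levels were 6098 and 6756 FPKM in TCN1_OE against 5839 and 6318 FPKM in NC. Of the 11 listed markers of melanocytes, fibroblasts, endothelial cells and leukocytes, 2 reached 1 FPKM, and their sums were 4.33 and 5.02 FPKM in TCN1_OE against 4.01 and 4.82 FPKM in NC. As in all bulk RNA, fewer expressing cells and less RNA per cell cannot be told apart.

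No initiation factor passed the test in either direction, but most values leaned below NC. The factors together held 0.946% and 0.911% of all counts in the TCN1_OE libraries, against 1.02% and 1.00% in the NC libraries, so both TCN1_OE libraries were below both NC libraries. The difference was small: the median log2 fold change of the 50 factors with enough counts to test was -0.10, against 0.0016 for all 15113 genes tested. EIF3B had the smallest adjusted p, 0.187, and EIF4EBP1 and EIF2S1 followed at 0.226 each. Values of the individual factors are therefore measurements, not calls.

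Genes were called at an edgeR adjusted p under 0.05. Of the 50 factors tested, 0 were called higher, where 0.285% of all tested genes were, and 0 were called lower, where 0.212% of all tested genes were. At an unadjusted p under 0.05, 12 factors were below NC, where 6.81% of all tested genes were, and 0 were above NC, where 6% of all tested genes were. DESeq2 called 0 factors lower, where 0.935% of its genes were, and 0 higher, where 0.815% were. Limma on log2 FPKM called 0 factors lower, where 0% of its genes were, and 0 higher, where 0.00872% were, with either pseudocount. Without a filter on low counts edgeR called 2 factors lower, EIF3B (adjusted p 0.0482) and EIF4EBP1 (adjusted p 0.0249), where 0.941% of its genes were, and 0 higher, where 0.685% were. The log2 fold change was negative for 37 of 50 factors, where 49.7% of all tested genes had a negative value. Both TCN1_OE libraries were below both NC libraries in library-scaled counts (CPM) for 20 factors, where 21.8% of all tested genes were, and above both for 4 factors, where 21.2% of all tested genes were. The 12 are all among the 20, and genes are not independent replicates, so these counts carry no p. Not tested for lack of counts were EIF3K, EIF4EBP3, EIF5A, EIF1AX-AS1 and EIF5-DT.

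**Figure D1:**
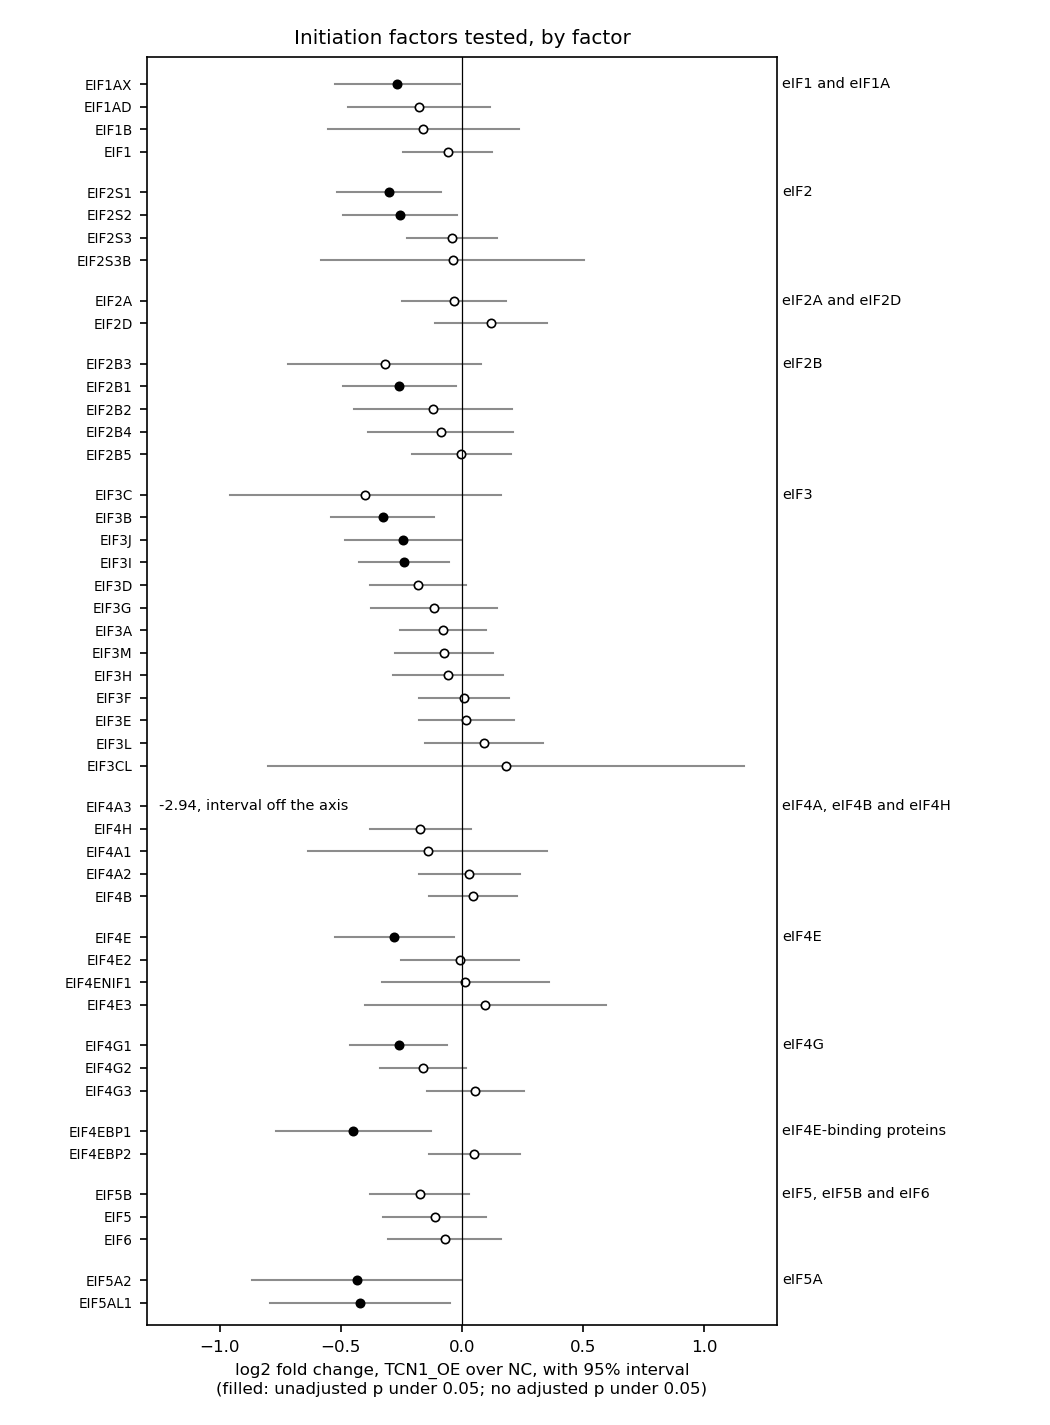
Log2 fold change, TCN1_OE over NC, of the protein-coding initiation factors tested, grouped by factor, with 95% intervals from edgeR. Most points lie left of 0, filled points mark the 12 with an unadjusted p under 0.05, and EIF4A3 at -2.94 is written rather than drawn because its interval runs off the axis.

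Some initiation factor mRNAs are known to belong to the terminal oligopyrimidine class, whose transcripts begin with C followed by an unbroken pyrimidine stretch and whose translation is governed by mTORC1 and LARP1. The RefSeq start sites of 42 factors were available. None was available for EIF2S2, EIF3A, EIF3CL, EIF3E, EIF3G, EIF3H, EIF3L and EIF4EBP1, so these were not searched. Of them, 10 (23.8%) opened with an unbroken run of at least 5 pyrimidines that begins with C, against 5.14% of the 27305 genes in the same table. That table also holds genes with too few counts to test here, so these shares come from unlike sets. The 10 were EIF2A, EIF2D, EIF2S3, EIF2S3B, EIF3D, EIF3F, EIF3K, EIF3M, EIF4A2 and EIF4B. Of the 9 tested, 5 had a negative value, 0 had an unadjusted p under 0.05, and the median log2 fold change was -0.03 with a range from -0.18 to 0.12. Of the 30 tested factors without the stretch, 26 had a negative value, 10 had an unadjusted p under 0.05, and the median was -0.17. These 30 include EIF3C, EIF4A1, EIF4A3 and EIF5AL1, whose counts are uncertain, and the 9 include EIF2S3B, a near copy of EIF2S3. The split was not repeated without them. Among all other tested genes in the table, the median was -0.002 for the 756 with the stretch and -0.01 for the 9923 without it. This grouping was chosen after the values were seen and has no test of the difference, and a match in letters does not show where transcription starts in HaCaT cells.

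The windows below, chosen after the values were seen, show such starts for factors whose values are described further on. Each runs from 10 bases before the RefSeq start to the 15th base of the transcript, read 5′ to 3′ on the gene's strand in GRCh38.p14, with the pyrimidine stretch at the start in capitals. The first 8 carry the stretch.
EIF2S3, chrX:24054946-24054970, plus strand: gatttccttcCTCTTTTggcaacat
EIF2A, chr3:150546777-150546801, plus strand: cgagcggtttCTCTTTCCgggacaa
EIF2D, chr1:206612451-206612475, minus strand: ccagccgggcCCTTTTCgcggccgg
EIF3D, chr22:36529152-36529176, minus strand: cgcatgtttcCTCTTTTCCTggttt
EIF3F, chr11:7987327-7987351, plus strand: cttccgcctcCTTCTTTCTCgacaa
EIF3M, chr11:32583821-32583845, plus strand: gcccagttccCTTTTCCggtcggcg
EIF4A2, chr3:186783567-186783591, plus strand: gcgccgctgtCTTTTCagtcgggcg
EIF4B, chr12:53006446-53006470, plus strand: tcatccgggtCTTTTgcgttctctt
The next 6 have another base at the start, and each is among the 12 with an unadjusted p under 0.05.
EIF2S1, chr14:67360318-67360342, plus strand: gaggttccgcatgcgcggtggagtg
EIF2B1, chr12:123633672-123633696, minus strand: gtacggaagtgcgccggaagtgggg
EIF3B, chr7:2354817-2354841, plus strand: tcgcacgcacatggctgggctgtag
EIF3I, chr1:32222397-32222421, plus strand: ttccggtcttactcacgttgcggcc
EIF3J, chr15:44537137-44537161, plus strand: ccgccgtgctaactcctcgctagct
EIF4E, chr4:98929119-98929143, minus strand: tggagcggttgtgcgatcagatcga
The last 3 also lack the stretch, and their log2 fold changes lay between -0.002 and 0.06. For EIF4G3 the most 5′ RefSeq start is shown.
EIF2B5, chr3:184135348-184135372, plus strand: cagcttccttgcggaagtggtgacc
EIF4EBP2, chr10:70404135-70404159, plus strand: gccttcgcccgcttccggtcgtcgt
EIF4G3, chr1:21176883-21176907, minus strand: ttttccgagcagccgtcctgccgga

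**Figure D2:**
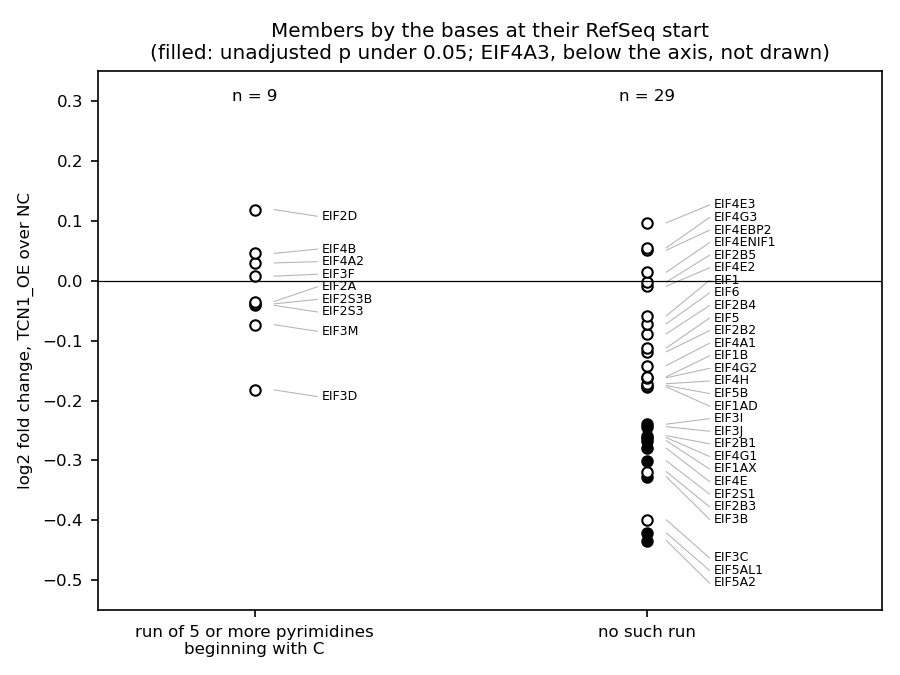
Log2 fold change, TCN1_OE over NC, of 38 of the 39 tested factors with a RefSeq start (EIF4A3, at -2.94 and without the stretch, is below the axis), split by whether the transcript opens with a run of at least 5 pyrimidines that begins with C. The 9 with the stretch lie between -0.18 and 0.12 with no filled point, and all 10 filled points (unadjusted p under 0.05) lie in the other column.

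Among the genes of start codon selection, all 4 had negative values, with a median log2 fold change of -0.17. EIF1, the factor that keeps the scanning ribosome open, was abundant, with 159 and 149.8 FPKM in TCN1_OE against 166 and 155 FPKM in NC, and the groups overlapped. EIF1AX, the X-linked eIF1A gene that works beside eIF1, had 24.2 and 20.97 FPKM in TCN1_OE against 29.6 and 24.5 FPKM in NC. Both TCN1_OE libraries of EIF1AX were below both NC libraries, but its log2 fold change of -0.27 ± 0.12 came with adjusted p 0.367 in edgeR. The EIF1AX value was -0.13 without NC replicate 1 and -0.39 without NC replicate 2. EIF1B, the eIF1 paralog, stood at 5.18 ± 0.0736 FPKM in TCN1_OE and 5.77 ± 0.157 FPKM in NC (SD, n = 2 each). EIF1AD, a protein with an eIF1A-like domain, stood at 7.22 ± 0.271 FPKM in TCN1_OE and 8.16 ± 0.451 FPKM in NC (SD, n = 2 each).

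The 3 subunits of eIF2 did not share 1 value. EIF2S1, the alpha subunit that stress kinases phosphorylate, had 25.2 and 22.3 FPKM in TCN1_OE against 30.5 and 27.8 FPKM in NC. Every TCN1_OE library was below every NC library, and the log2 fold change was -0.30 ± 0.10 with a 95% interval from -0.52 to -0.08 (edgeR, adjusted p 0.226). EIF2S2, the beta subunit that contacts eIF5 and eIF2B, had 89.0 and 74.1 FPKM in TCN1_OE against 103 and 90.8 FPKM in NC. Its groups did not overlap, though TCN1_OE replicate 1 came close to NC replicate 2, and its log2 fold change was -0.26 ± 0.11 (edgeR, adjusted p 0.346). The EIF2S2 value was -0.39 without TCN1_OE replicate 1 and -0.14 without TCN1_OE replicate 2. EIF2S3, the gamma subunit that holds GTP and the initiator tRNA, had 86.2 and 79.7 FPKM in TCN1_OE against 85.3 and 84.9 FPKM in NC. Its groups overlapped, and the log2 fold change of -0.04 ± 0.08 had a 95% interval from -0.23 to 0.14. Whether EIF2S3 differed from the other subunits was not tested. EIF2S3B, a near copy of EIF2S3 whose reads could be split with it, had 65 and 66 counts in TCN1_OE against 87 and 49 counts in NC.

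EIF2A and EIF2D can deliver initiator or other tRNA without eIF2. EIF2A had 29.8 and 26.3 FPKM in TCN1_OE against 30.1 and 27.2 FPKM in NC, and the groups overlapped. EIF2D had 7.91 and 7.93 FPKM in TCN1_OE against 7.16 and 7.40 FPKM in NC, so both TCN1_OE libraries were above both NC libraries. The log2 fold change of EIF2D was 0.12 ± 0.10 (edgeR, adjusted p 0.693).

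All 5 subunits of eIF2B, the exchange factor that reloads eIF2 with GTP, had negative values, and their median log2 fold change was -0.12. EIF2B1, the alpha subunit of the regulatory core, had 15.2 and 15.2 FPKM in TCN1_OE against 18.8 and 17.5 FPKM in NC. Both TCN1_OE libraries of EIF2B1 were below both NC libraries, with a log2 fold change of -0.26 ± 0.10 (edgeR, adjusted p 0.333). EIF2B2, the beta subunit, had 3.38 and 3.35 FPKM in TCN1_OE against 3.50 and 3.81 FPKM in NC, also without overlap. EIF2B2 did not pass the test, with a log2 fold change of -0.12 ± 0.15 (edgeR, adjusted p 0.796).

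EIF2B3, the gamma subunit of the catalytic part, had 5.92 and 4.37 FPKM in TCN1_OE against 7.001 and 5.77 FPKM in NC. Its TCN1_OE replicate 1 lay above NC replicate 2, and the log2 fold change of -0.32 ± 0.18 had the largest SE of eIF2B. It was -0.55 without TCN1_OE replicate 1 and -0.13 without TCN1_OE replicate 2. EIF2B4, the delta subunit, had 5.03 and 5.83 FPKM in TCN1_OE against 6.00 and 5.50 FPKM in NC. EIF2B5, the catalytic epsilon subunit, had 14.8 and 15.4 FPKM in TCN1_OE against 15.2 and 15.04 FPKM in NC. Both of these overlapped between groups, and the sign of the EIF2B5 value of -0.002 turned positive under other scalings.

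**Figure D3:**
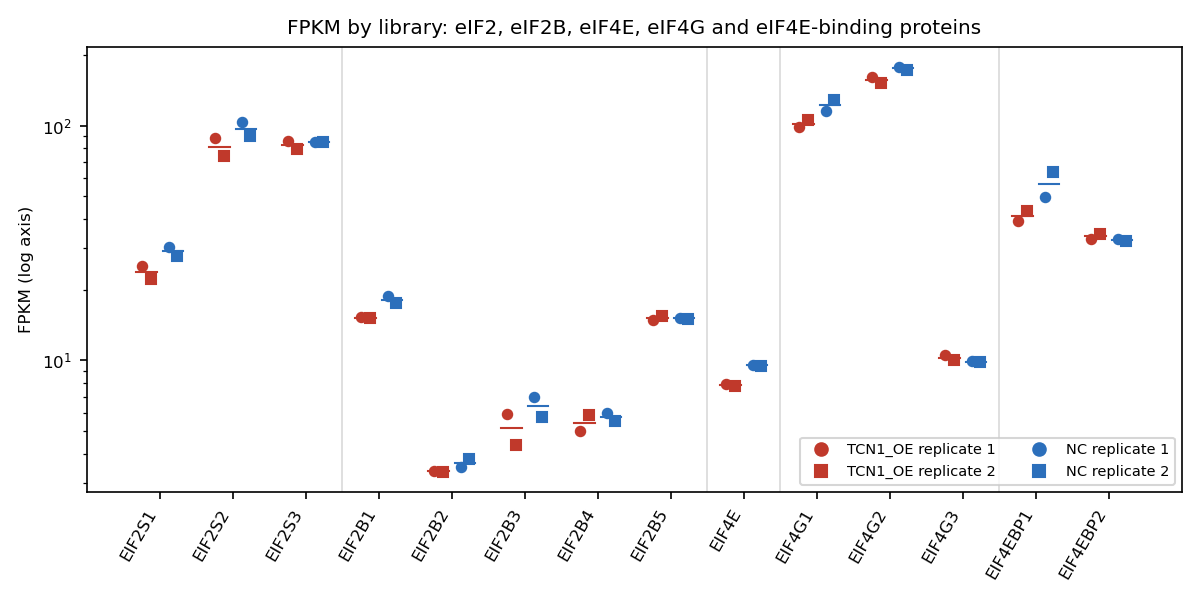
FPKM on a log axis of the subunits of eIF2 and eIF2B, of EIF4E, the eIF4G scaffolds and the eIF4E-binding proteins, with TCN1_OE left of NC for each gene, points for libraries and lines for group means. EIF2S1, EIF2B1, EIF4E, EIF4G1 and EIF4EBP1 show both TCN1_OE points below both NC points, while EIF2S3, EIF2B5 and EIF4EBP2 show overlap or near equality.

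In eIF3, which binds the small subunit and the mRNA, 9 of 13 tested genes had negative values and the median log2 fold change was -0.08. EIF3B, the subunit with an RNA recognition motif that anchors EIF3I and EIF3G, gave the smallest p of all initiation factors. EIF3B (ENSG00000106263, chr7:2354086-2380745, plus strand in GRCh38) had 45.5 and 51.3 FPKM in TCN1_OE against 58.2 and 62.9 FPKM in NC. Both TCN1_OE libraries were below both NC libraries, with a log2 fold change of -0.33 ± 0.10 and a 95% interval from -0.54 to -0.11 (edgeR, adjusted p 0.187). EIF3I, a WD-repeat partner of EIF3B, had 18.3 and 18.4 FPKM in TCN1_OE against 21.8 and 21.4 FPKM in NC. Replicates of EIF3I lay close together within each group and the groups were apart, yet its log2 fold change of -0.24 ± 0.08 came with adjusted p 0.262 in edgeR. EIF3J, a loosely bound subunit at the decoding centre, had 50.4 and 44.4 FPKM in TCN1_OE against 61.0 and 50.9 FPKM in NC, with a log2 fold change of -0.24 ± 0.11 (edgeR, adjusted p 0.38). Its groups did not overlap, but TCN1_OE replicate 1 sat just under NC replicate 2.

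EIF3A, the largest subunit and the core of the complex, had 96.4 and 92.0 FPKM in TCN1_OE against 101 and 97.2 FPKM in NC, a log2 fold change of -0.08 ± 0.08. EIF3D, which can bind the cap of some mRNAs, stood at 54.5 ± 4.11 FPKM in TCN1_OE and 61.7 ± 1.21 FPKM in NC (SD, n = 2 each), with a log2 fold change of -0.18 ± 0.09 (edgeR, adjusted p 0.43). Both genes also had TCN1_OE below NC in every library. In that direction 5 of the 13 genes showed no overlap, where 21.8% of all tested genes did. In the other direction 0 did, where 21.2% of all tested genes did. Whether eIF3 differed from these shares was not tested. EIF3E, EIF3F, EIF3G, EIF3H, EIF3L and EIF3M had log2 fold changes between -0.12 and 0.09, and their groups overlapped. EIF3F, a subunit of the MPN fold, was the most even, with 12.8 and 12.8 FPKM in TCN1_OE against 12.9 and 12.5 FPKM in NC.

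The order of eIF3 levels depends on the gene length used. The deposited FPKM was scaled to 37761 bp for EIF3E, whose transcript with the longest coding sequence is 1543 bases in GENCODE v29. On the deposited scale EIF3E, a core subunit, averaged 8.57 ± 0.554 FPKM in TCN1_OE and 8.44 ± 0.549 FPKM in NC (SD, n = 2 each). As counts per kilobase of coding transcript scaled to the library total, a level and not a difference, it averaged 209.7 ± 13.6 in TCN1_OE and 206 ± 13.4 in NC, the highest of eIF3. Next on that scale came EIF3B at 142 ± 11.96 in TCN1_OE and 178 ± 9.78 in NC (SD, n = 2 each). EIF3I, listed with 9526 bp, followed at 120.0 ± 0.257 in TCN1_OE and 141 ± 1.89 in NC. EIF3H followed at 115 ± 15.3 in TCN1_OE and 119 ± 5.45 in NC. After these came EIF3A at 101 ± 3.35 in TCN1_OE and 106 ± 3.07 in NC, and EIF3D at 96.4 ± 7.28 in TCN1_OE and 109 ± 2.13 in NC, so EIF3A was ahead of EIF3D in TCN1_OE and behind it in NC. In TCN1_OE each of the neighbours EIF3I and EIF3H, EIF3H and EIF3A, and EIF3A and EIF3D differed by less than the larger SD of the pair. In NC, EIF3D and EIF3A differed by little more than the SD of EIF3A. This order also rests on which transcript is taken. The one used is 7540 bases with a coding sequence of 1071 for EIF3F, and 5051 with a coding sequence of 1122 for EIF3M. Shorter transcripts would place these genes higher, so their place in the order is uncertain. Fold changes within a gene do not depend on the length used.

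**Figure D4:**
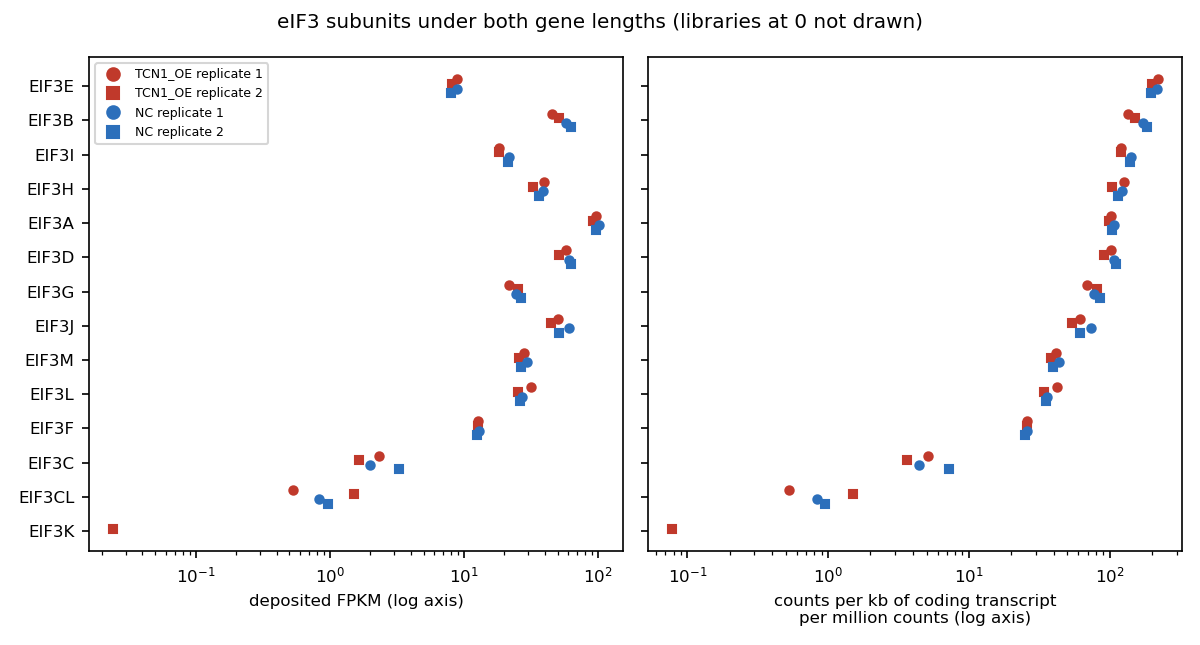
Levels of the eIF3 subunits in the 4 libraries on the deposited FPKM scale (left) and as library-scaled counts per kilobase of the GENCODE v29 coding transcript (right), both on log axes. EIF3E moves from 8.57 FPKM in TCN1_OE and 8.44 FPKM in NC on the left to the top of the right panel, and EIF3C, EIF3CL and EIF3K lie far under the other subunits on both scales.

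The reported level of at least 3 eIF3 genes is uncertain. EIF3K, the smallest accessory subunit, was listed with 0 and 1 counts in TCN1_OE and 0 and 0 counts in NC. EIF3C, a core subunit whose yeast counterpart binds eIF1 and eIF5, had 268 and 168 counts in TCN1_OE against 278 and 263 counts in NC, and its near-identical copy EIF3CL had 27 and 68 counts in TCN1_OE against 51 and 34 counts in NC. Reads that match both copies could be lost or split in counting, and their handling is not stated by the submitters' notes used here. The log2 fold changes were -0.40 ± 0.25 for EIF3C and 0.18 ± 0.44 for EIF3CL, with overlapping groups. The EIF3C value was -0.73 without NC replicate 1 and -0.01 without NC replicate 2. For EIF3L, 51.8% of exonic bases lay under other annotated genes, and it had 2243 and 1618 counts in TCN1_OE against 2319 and 1310 counts in NC. Whether that overlap bears on the EIF3L counts was not tested.

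The helicase group held the least certain value. EIF4A2, an eIF4A helicase, had 64.5 and 58.6 FPKM in TCN1_OE against 64.2 and 56.0 FPKM in NC, and the groups overlapped. EIF4A1, the paralog that usually dominates in growing cells, was listed with only 110 and 77 counts in TCN1_OE against 136 and 72 counts in NC. In the annotation, 48.6% of its exonic bases lay under other genes, and its 6 pseudogene copies together held 265 and 199 counts in TCN1_OE against 389 and 181 counts in NC. Whether the overlap or the copies bear on the low EIF4A1 counts was not tested. No level order of EIF4A1 and EIF4A2 is drawn from these values.

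EIF4A3, an eIF4A relative that works in the exon junction complex, had 36 and 38 counts in TCN1_OE against 43 and 408 counts in NC. NC replicate 2 alone was high, so the fitted log2 fold change of -2.94 ± 1.92 rested on that library, and without it the value was 0.14. Without NC replicate 1, which left that high library as the only NC library, the EIF4A3 value was -3.90. EIF4H, which stimulates the helicase, had 68.4 and 73.9 FPKM in TCN1_OE against 75.9 and 84.0 FPKM in NC, without overlap. The EIF4H value was -0.17 ± 0.09 on the log2 scale (edgeR, adjusted p 0.482), and -0.09 without NC replicate 2. EIF4B, another stimulator and a known terminal oligopyrimidine mRNA, stood at 69.6 ± 1.53 FPKM in TCN1_OE and 67.2 ± 1.84 FPKM in NC (SD, n = 2 each).

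At the cap, EIF4E had 7.96 and 7.77 FPKM in TCN1_OE against 9.57 and 9.47 FPKM in NC. Replicates agreed closely and the groups were apart, with a log2 fold change of -0.28 ± 0.11 and a 95% interval from -0.53 to -0.03 (edgeR, adjusted p 0.319). EIF4E2, a cap-binding paralog that represses translation, had 5.84 ± 0.0759 FPKM in TCN1_OE and 5.85 ± 0.610 FPKM in NC (SD, n = 2 each). EIF4E3, a further paralog, and EIF4ENIF1, which carries eIF4E into the nucleus, had log2 fold changes of 0.10 ± 0.22 and 0.01 ± 0.15, with overlapping groups. The difference between EIF4E and its paralogs was not tested.

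The scaffold genes ran in the same order in both lines. EIF4G1, the main scaffold of cap-dependent initiation (chr3:184314495-184335358, plus strand), had 98.8 and 105 FPKM in TCN1_OE against 116 and 128 FPKM in NC. Its groups did not overlap, with a log2 fold change of -0.26 ± 0.09 and a 95% interval from -0.46 to -0.06 (edgeR, adjusted p 0.253). EIF4G2, a relative that lacks the eIF4E site, had 162 and 152 FPKM in TCN1_OE against 177 and 173 FPKM in NC, again without overlap. On the log2 scale the EIF4G2 value was -0.16 ± 0.08 (edgeR, adjusted p 0.433). EIF4G3, the second full-length scaffold, had 10.5 and 10.0 FPKM in TCN1_OE against 9.90 and 9.80 FPKM in NC, which put both TCN1_OE libraries above both NC libraries by a log2 fold change of 0.06 ± 0.09. On the coding transcript scale the levels were 333 ± 14.3 in TCN1_OE and 372 ± 6.52 in NC for EIF4G2, and 158 ± 7.15 in TCN1_OE and 189 ± 13.3 in NC for EIF4G1 (SD, n = 2 each). EIF4G3 followed at 22.9 ± 0.794 in TCN1_OE and 22.0 ± 0.149 in NC, so neighbours in this order were further apart than their spread.

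The eIF4E-binding proteins, which compete with eIF4G for eIF4E, did not share 1 value, and the difference between them was not tested. EIF4EBP1 (ENSG00000187840) had 39.4 and 43.2 FPKM in TCN1_OE against 49.5 and 63.3 FPKM in NC. Both TCN1_OE libraries were below both NC libraries, but the NC libraries were far apart. The log2 fold change of EIF4EBP1 was -0.45 ± 0.14, with a 95% interval from -0.77 to -0.13 (edgeR, adjusted p 0.226). The EIF4EBP1 value was -0.63 without NC replicate 1 and -0.26 without NC replicate 2, so it leaned on NC replicate 2. EIF4EBP2 had 33.0 and 34.6 FPKM in TCN1_OE against 32.9 and 32.2 FPKM in NC, a log2 fold change of 0.05 ± 0.08. EIF4EBP3 was listed with 4 and 4 counts in TCN1_OE against 5 and 2 counts in NC and was not tested.

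The 3 genes of subunit joining and its control, EIF5, EIF5B and EIF6, all had negative values, with a median log2 fold change of -0.11. EIF5, the GTPase activator of eIF2, had 46.7 and 41.7 FPKM in TCN1_OE against 50.9 and 44.4 FPKM in NC, and the groups overlapped. EIF5B, the GTPase that joins the ribosomal subunits, had 24.03 and 21.9 FPKM in TCN1_OE against 27.0 and 24.6 FPKM in NC. EIF5B groups did not overlap, and its log2 fold change was -0.18 ± 0.09 (edgeR, adjusted p 0.463), and -0.11 without NC replicate 1. EIF6, which keeps the large subunit from joining early, stood at 41.3 ± 1.95 FPKM in TCN1_OE and 43.3 ± 2.22 FPKM in NC (SD, n = 2 each).

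The eIF5A genes code for the hypusine-bearing factor that helps the ribosome through difficult stretches. EIF5A itself was listed with 4 and 4 counts in TCN1_OE against 5 and 5 counts in NC, while its 2 pseudogene copies together held 124 and 121 counts in TCN1_OE against 201 and 90 counts in NC. EIF5AL1, a near-identical intronless copy, had 201 and 163 counts in TCN1_OE against 305 and 182 counts in NC. Its log2 fold change of -0.42 ± 0.17 came with adjusted p 0.325 in edgeR, and its counts may hold reads of EIF5A, which was not tested. EIF5A2, a paralog at low level, had 1.52 and 1.33 FPKM in TCN1_OE against 2.08 and 1.76 FPKM in NC. Its groups were apart, with a log2 fold change of -0.43 ± 0.19 (edgeR, adjusted p 0.385).

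**Figure D5:**
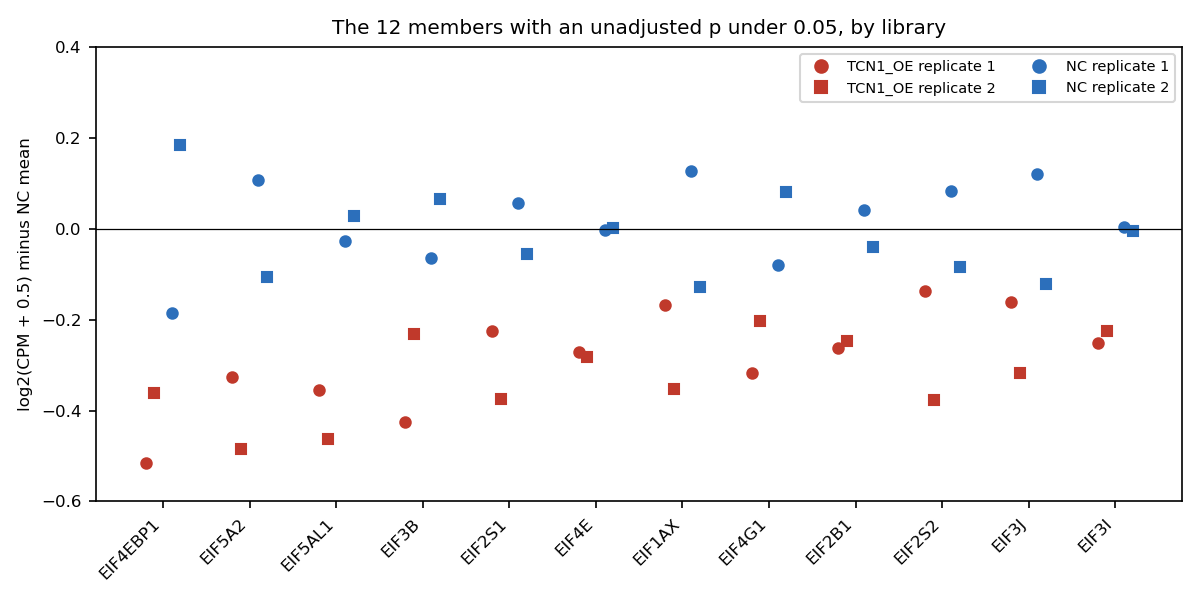
Level of each library minus the NC mean, as log2(CPM + 0.5), for the 12 factors with an unadjusted p under 0.05, with TCN1_OE points left of NC points. All TCN1_OE points lie below both NC points of their gene, replicate numbers are not in the same order in every gene, and the gap is narrow for EIF1AX, EIF2S2 and EIF3J.

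Of the non-coding neighbours, EIF1B-AS1, an antisense transcript beside EIF1B, had 52 and 42 counts in TCN1_OE against 44 and 16 counts in NC. Both TCN1_OE libraries were above both NC libraries in CPM, with a log2 fold change of 0.70 ± 0.33 (edgeR, adjusted p 0.423). The EIF1B-AS1 value was 1.10 without NC replicate 1 and 0.44 without NC replicate 2. EIF3J-DT, a divergent transcript of the EIF3J promoter, had 4.42 and 3.99 FPKM in TCN1_OE against 3.93 and 3.86 FPKM in NC, a log2 fold change of 0.11 ± 0.16. EIF2B5-DT had 16 and 11 counts in TCN1_OE against 21 and 7 counts in NC. The library kit named in the labels does not mark strand, so reads of overlapping antisense genes cannot be told apart.

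Among the 300-base windows from 250 bases before to 50 bases after the RefSeq start, the E-box CACGTG, searched on both strands, stood in 11 of 42 factors (26.2%), against 8.78% of all genes. The shares of all genes here are over every gene of the RefSeq table, tested or not. Of the 9 factors with an E-box that were tested, 7 had a negative value, with a median log2 fold change of -0.26. Those without had 24 of 30 and a median of -0.10. The 9 include EIF4A3, whose value of -2.94 rested on NC replicate 2. This split was not planned, was not made for other genes, and its difference was not tested. The amino acid response element TGATGNAAT stood in 0 of these 42 factors, against 1.22% of all genes, and the 10-base NRF1 core motif in 0, against 1.52%. EIF4EBP1 and EIF2S2 are not among the 42, so nothing is known here of their motifs. The E-box and pyrimidine groups share EIF3F, EIF3K and EIF4B, and a match of letters is a description only.

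The lists of other translation and stress response genes, chosen with earlier results of these data known, gave the only 2 calls in this neighbourhood. Over all tested genes, 0.285% were called higher and 0.212% lower. PDCD4, which inhibits the eIF4A helicase, was 1 of 26 initiation partners and regulators tested, and rose: it had 57.5 and 56.6 FPKM in TCN1_OE against 39.0 and 36.3 FPKM in NC. Its log2 fold change was 0.59 ± 0.08, with a 95% interval from 0.41 to 0.78 (edgeR, adjusted p 0.0272). DDIT4, an mTORC1 inhibitor, was 1 of 7 stress response reporters tested, and rose: it had 205 and 233 FPKM in TCN1_OE against 139 and 148 FPKM in NC. DDIT4 had a log2 fold change of 0.61 ± 0.10 (edgeR, adjusted p 0.0418). Limma on log2 FPKM, which called 1 of 11470 genes, called neither. Its log2 differences were 0.59 and 0.60 for PDCD4 (adjusted p 0.144 and 0.142) and 0.61 and 0.61 for DDIT4 (adjusted p 0.175 under both pseudocounts).

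No other gene of these lists was called. ATF4, the transcription factor translated when eIF2 is phosphorylated, had 80.4 and 81.0 FPKM in TCN1_OE against 86.3 and 77.1 FPKM in NC, and CHAC1, a target of ATF4, had 0.588 and 0.694 FPKM in TCN1_OE against 1.34 and 2.06 FPKM in NC. CHAC1 groups did not overlap, with a log2 fold change of -1.39 ± 0.36 (edgeR, adjusted p 0.139). LARP1, the repressor of terminal oligopyrimidine mRNAs, had 23.2 and 24.6 FPKM in TCN1_OE against 27.9 and 31.2 FPKM in NC, a log2 fold change of -0.31 ± 0.09 (edgeR, adjusted p 0.201).

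The eIF2 kinases and phosphatase subunits gave 0 calls among 9 tested, with a median log2 fold change of -0.04. EIF2AK2, the kinase PKR, had the smallest p among them, with 13.9 and 12.3 FPKM in TCN1_OE against 15.3 and 14.9 FPKM in NC (edgeR, adjusted p 0.384). Elongation genes gave 0 calls among 10 tested, with a median of -0.04. EEF2KMT, which methylates the elongation factor eEF2, had 1.69 and 2.05 FPKM in TCN1_OE against 2.86 and 3.30 FPKM in NC, a log2 fold change of -0.72 ± 0.21 (edgeR, adjusted p 0.193). Termination and recycling genes gave 0 calls among 5 tested, with a median of -0.19. ABCE1, which splits ribosomes after termination, had 13.9 and 11.4 FPKM in TCN1_OE against 17.2 and 16.01 FPKM in NC, a log2 fold change of -0.40 ± 0.11 (edgeR, adjusted p 0.169).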

How the data were processed

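PolyA RNA of 2 TCN1_OE and 2 NC libraries was measured; groups and replicate numbers came from the sample titles. Each deposited file holds, per the file headers, raw counts and FPKM per gene, FPKM being the count scaled by the authors to gene length and library total. Reads were aligned with HISAT2 to GRCh38 and counted with HTSeq 0.13.5, per the submitters' processing notes. How strand and reads with several matches were treated, and the annotation release: not given in the sources used here. Chi-square over its degrees of freedom between replicates came to 7.65 in TCN1_OE and 7.55 in NC, so no library pair agreed within counting noise.

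Deposited counts of all genes were tested with edgeR 4.0.16 in R 4.3.3 (quasi-likelihood, TMM, robust, filterByExpr with a minimum count of 10, group only), which left 15113 genes, with Benjamini-Hochberg adjustment. SE was the size of the log2 fold change over the square root of F. With 2 against 2 libraries an exact permutation test cannot go below 0.333. Alternatives used other scalings and filters, DESeq2 1.42.0, limma 3.58.1 on log2(FPKM + 0.5) and log2(FPKM + 0.1), a replicate block and leaving out each library. The step was checked on simulated data.

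Of 89 rows starting EIF1 to EIF6, 5 EIF2AK rows and 29 pseudogenes were left out. EIF4EBP1, EIF4EBP2 and EIF4EBP3 were kept because GENCODE v29 lists them as protein coding. Members, lists and complexes were chosen with earlier results of these data known. Values by library were given for the member of each complex with the highest FPKM, the smallest p or the largest log2 fold change at 1 FPKM or more, for all subunits of eIF2, eIF2B and the eIF4E-binding proteins, and for up to 2 genes per other list. EIF1AD, EIF1B, EIF2S3B, EIF3C, EIF3CL, EIF3D, EIF3F, EIF3I, EIF3J, EIF3K, EIF4G3, EIF5A, ATF4 and others beyond that were named after their values were seen. Sequences and starts are from RefSeq (GRCh38.p14).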

Additional observations from a re-analysis of the deposited data

How the results depend on the processing

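The median log2 fold change of the initiation factors was negative under every alternative run, and leaving out a library gave -0.131 to -0.0574, nearest to 0 without NC replicate 1. With all libraries kept, counts of factors called lower were 0 except without a filter and with a replicate block. Without a filter 2 were (EIF3B, edgeR adjusted p 0.0482, and EIF4EBP1, 0.0249), where 0.941% of all genes were. With a replicate block 17 of 50 were, where 11% of all genes were. Under none of these was a factor called higher, where 0.685% of all genes were without a filter and 8.05% with the block. The replicate numbers are not known to pair the libraries: same-numbered deviations correlated at 0.199 over all genes and 0.217 over the factors, with only 2 pairs. Over all genes the block called 1655 lower and 1216 higher, against 32 and 43 without it. DESeq2 called 109 lower and 95 higher, limma 0 and 1, no filter 275 and 200, library totals 63 and 69, a minimum of 1 FPKM 14 and 31, and leaving out a library 106 to 142 and 104 to 188. The cause was not tested. Medians by complex moved to 0.0340 (no filter) and 0.0498 (DESeq2) for the eIF4E-binding proteins, which then held EIF4EBP3, and to -0.346 for eIF5A with limma and a pseudocount of 0.5. Leaving out a library gave -0.125 to -0.0574 for eIF3, 0.00598 to 0.0686 for eIF2A and eIF2D, -0.204 to 0.0673 for eIF4E, -0.109 to 0.00414 for the helicase group and -0.202 to -0.0258 for eIF5, eIF5B and eIF6. EIF2B5 turned positive with other size factors (0.00103), library totals (0.00170), a minimum of 1 FPKM (0.0108) and limma (0.00137 and 0.00140). Leaving out a library gave -0.0469 to 0.0347 for EIF2B5, -0.151 to 0.0631 for EIF2S3B, -0.215 to 0.0237 for EIF2B4, -0.117 to 0.0360 for EIF2A and -3.90 to 0.140 for EIF4A3. These omissions were followed for 29 factors, picked by level, p or size of change, or as subunits of eIF2, eIF2B or the eIF4E-binding proteins. Calls of factors under an omission are not given, because each omission left 1 library in a group. Of the 29, 19 moved by over 1.5 times or changed sign under at least 1 omission. Other translation and stress response genes are counted here only for fits with all libraries kept. Those called lower numbered 0, but 3 without a filter and 18 of 57 with the block, where 11% of all genes were. Those called higher numbered 2, but 0 with limma and 5 with the block, where 8.05% of all genes were. With a minimum run of 4, or with the most 5′ start, the pyrimidine groups held the same 9 and 30 tested factors, so their medians could not move. A minimum run of 6 gave groups of 8 and 31, with medians of -0.04 and -0.17. These rules therefore do not test the split. Without 6 factors of uncertain counts the median of 44 was -0.08. Both the rules and this omission were chosen after seeing the data.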

Other observations

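EIF4A3 was 1 of 10 genes whose library-scaled counts (CPM) in NC replicate 2 were over 3 times those of each other library, at 100 counts or more there. APEX1, a DNA repair endonuclease, had 44 and 37 counts in TCN1_OE against 42 and 575 counts in NC. UQCRC2, a respiratory chain subunit, had 37 and 36 counts in TCN1_OE against 38 and 421 counts in NC. POLR3E, an RNA polymerase III subunit, had 9 and 7 counts in TCN1_OE against 4 and 236 counts in NC. By the same rule 7 genes stood out in TCN1_OE replicate 1, 3 in TCN1_OE replicate 2 and 14 in NC replicate 1. The rule was chosen after seeing EIF4A3.

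The listed gene length behind the FPKM was over 2 times the transcript with the longest coding sequence for 25 of the 50 coding factors, and the median ratio over them was 1.94. More than 10% of exonic bases lay under another annotated gene for 12 factors.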
